A study of Mus musculus with 12 samples.

Results

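The 10 genes described here are Pecam1, Cdh5, Tek, Tie1, Eng, Vwf, Icam1, Icam2, Vcam1 and Selp, which endothelial cells use to hold their identity and to capture leukocytes. The rule that chose them was a list of names and used no measured value, although the list was drawn up with earlier results of these data known, and all 10 were found by Ensembl identifier among the 46983 genes in the files. RNA was taken from the cardiac left ventricle (LV) of 12-week-old FVB mice and read by 3′-seq, which counts reads near the 3′ end of each transcript. There were 4 groups of 3 animals each, from multiple litters: Wt offspring of non-diabetic pregnancy (unexposed Wt), Wt offspring of diabetic pregnancy (diabetes-exposed Wt), Hif1a+/- offspring of non-diabetic pregnancy (unexposed Hif1a+/-) and Hif1a+/- offspring of diabetic pregnancy (diabetes-exposed Hif1a+/-). Dams were Wt females, made diabetic with streptozotocin in the exposed groups, and sires were non-diabetic Hif1a+/- males. The Hif1a deletion is global and heterozygous, so endothelial cells, leukocytes and cardiomyocytes of the Hif1a+/- animals all carry it. The comparisons ask whether vascular gene expression differs with maternal diabetes, with Hif1a haploinsufficiency, or with both.

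Endothelial cells line every vessel of the heart and the chamber surface itself. Their identity rests on junction proteins (PECAM-1 and VE-cadherin, encoded by Pecam1 and Cdh5), on the receptor tyrosine kinases TIE2 and TIE1 (Tek and Tie1), which read angiopoietins, and on endoglin (Eng), a co-receptor for ligands of the BMP and TGF-beta families. Leukocytes leave the blood in steps: selectins on the endothelial surface let them roll, and immunoglobulin-family molecules (ICAM-1, ICAM-2, VCAM-1) hold them through their integrins. Von Willebrand factor (Vwf) and P-selectin (Selp) are stored together in Weibel-Palade bodies of endothelial cells and are released within minutes of activation, while Icam1 and Vcam1 are classical genes switched on by inflammatory cytokines through NF-kB.

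Total counts per library ran from 16132442 to 39812939, with the deepest library in diabetes-exposed Hif1a+/- (replicate 66). Levels are given as CPM, each count divided by the size of its library after scaling with edgeR's TMM factors. Hif1a itself was at 47.9 to 71.8 CPM in the 6 Wt libraries and 64.8 to 89.4 CPM in the 6 Hif1a+/- libraries, with a mean over both pregnancies 1.35-fold higher in Hif1a+/- (log2 0.43, SE 0.09; DESeq2 adjusted p = 0.031, edgeR 0.60). The DESeq2 call held in 6 of the 12 omissions of 1 library and was lost without unexposed Wt replicate 25 (adjusted p = 0.27). The level of the targeted gene was thus higher, not lower, in the libraries labelled Hif1a+/-. Where these 3′ reads lie relative to the deletion is not given in the sources used here, so the genotype rests on the labels, and every direction below that involves Hif1a+/- is that of the libraries so labelled. The labels call the animals female and the series text calls them male. Xist was at 158.4 CPM in diabetes-exposed Hif1a+/- replicate 72 and at most 5.99 CPM in the other 11 libraries, and 4 Y-linked genes were near 0 in replicate 72 alone. By these transcripts replicate 72 was female and the other 11 male. Sex was therefore mixed in diabetes-exposed Hif1a+/- only. Unexposed Wt replicate 25 stood apart in red cell transcripts, with 7323 CPM summed over 5 genes against at most 1771 CPM elsewhere. Where leaving out either library changed a call or a count of Vwf, Icam1, Vcam1 or Selp printed below, or moved a printed difference of theirs by more than 1.5 times, the value without it is given.

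Across the 5 pairwise comparisons of groups, edgeR's quasi-likelihood test with Benjamini-Hochberg adjustment called 0 of the 10 genes at adjusted p under 0.1, and 0 of all 14706 genes tested (percent called: 0.0). DESeq2, the tool the study used, called 2 of the 10 in diabetes-exposed against unexposed Hif1a+/- (Vwf and Icam1), against a background of 1.44% of genes, and 1 of the 10 (Vwf) in diabetes-exposed Hif1a+/- against unexposed Wt, against 0.453%. It called 0 of the 10 in the other 3 pairwise comparisons, which were diabetes-exposed against unexposed Wt (0.0148% of genes called), unexposed Hif1a+/- against unexposed Wt (0.00369%) and diabetes-exposed Hif1a+/- against diabetes-exposed Wt (0.155%). An unadjusted edgeR p under 0.05 with a higher level was reached by 4 of the 10 in diabetes-exposed against unexposed Hif1a+/- (Vwf, Icam1, Vcam1 and Selp), as by 5.72% of all genes, and with a lower level by 1 of the 10 (Cdh5), as by 6.28%. It was reached with a higher level by 3 of 10 in diabetes-exposed Hif1a+/- against unexposed Wt (Vwf, Vcam1 and Selp; 4.09% of all genes), by 3 of 10 against diabetes-exposed Wt (Vwf, Icam1 and Selp; 2.96%) and by 1 of 10 in diabetes-exposed against unexposed Wt (Vcam1; 1.17%). In unexposed Hif1a+/- against unexposed Wt it was reached by 0 of 10 in either direction (0.959%). With all 4 groups set against each other in 1 test, edgeR called 0 of the 10 and DESeq2 called 1 (Vwf; also Icam1 without replicate 25 or without replicate 72) and 0.76% of all genes, and in the mean difference between genotypes either tool called 0 of the 10 (DESeq2 called 0.0259% of all genes). The genes with the largest differences were the adhesion and storage-granule genes Vwf, Icam1, Vcam1 and Selp. Each of these 4 had its highest group mean in diabetes-exposed Hif1a+/-, as did 31.3% of all genes tested. Of the junction and receptor genes, Tek was the most level, Eng varied most within groups, and Cdh5 was lower in diabetes-exposed than in unexposed Hif1a+/- without passing the adjusted test. In whole LV tissue, fewer cells of a type and less RNA per cell cannot be told apart.

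**Figure D1:**
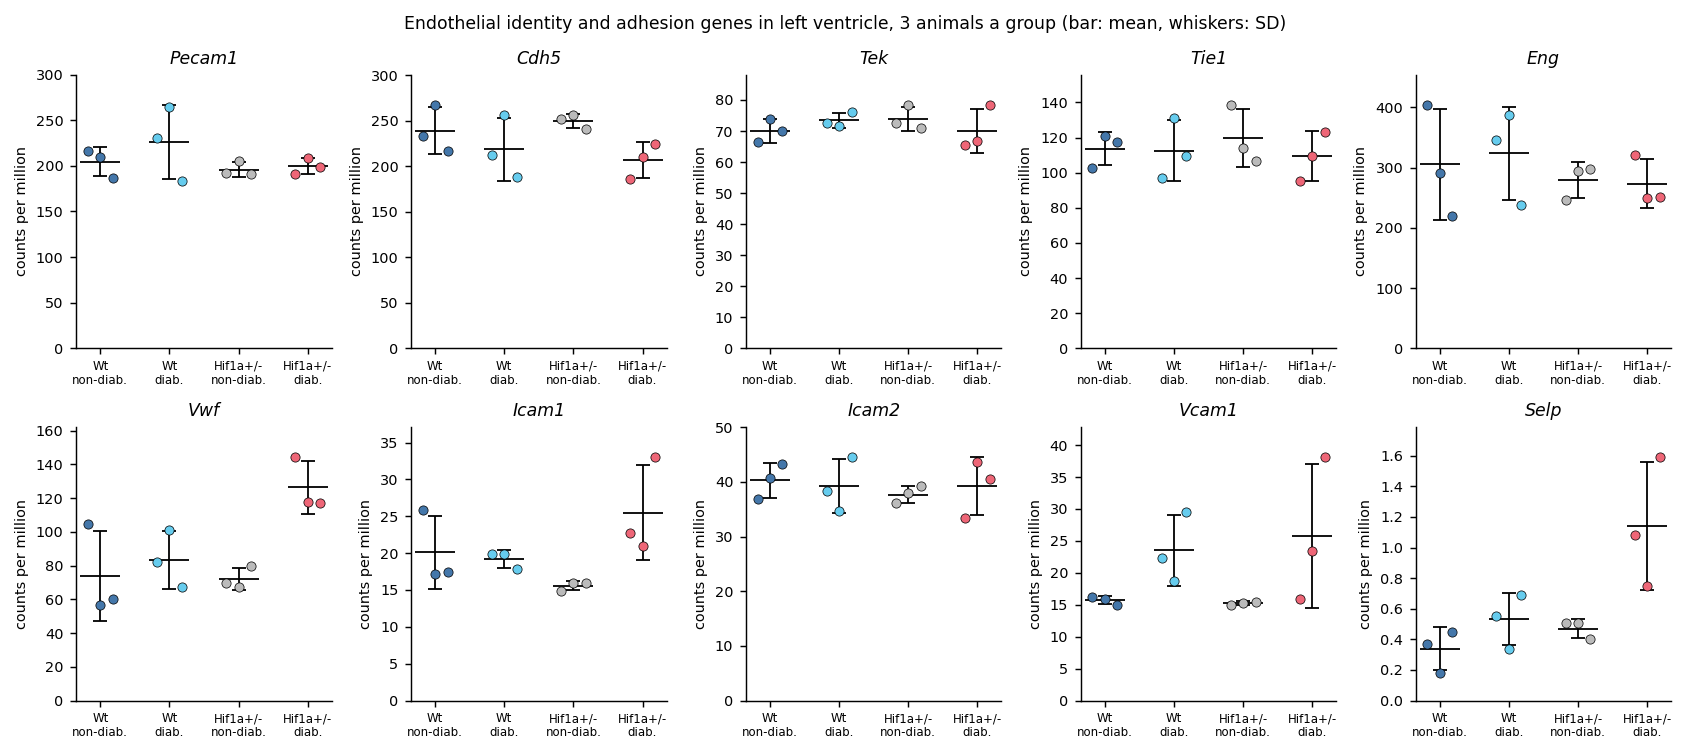
CPM (vertical axis, from 0) of each of the 10 genes in the 12 libraries, by group (horizontal axis), with 3 animals a group shown as points in replicate order, the mean as a long bar and the SD as whiskers. Group means of Pecam1 lie between 195.9 and 226.2 CPM and the points of Eng spread from 219.7 to 403.9 CPM, while Vwf and Selp lie higher in all 3 diabetes-exposed Hif1a+/- libraries than in the other 9.

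Pecam1, the adhesion molecule used most often to stain vessels, had overlapping levels in the 4 groups. Its level in unexposed Wt was 216.7, 210.0 and 186.5 CPM, in diabetes-exposed Wt 230.3, 264.5 and 183.8 CPM, in unexposed Hif1a+/- 191.9, 204.9 and 190.8 CPM, and in diabetes-exposed Hif1a+/- 191.1, 209.0 and 198.9 CPM. The lowest and the highest library were both diabetes-exposed Wt. Diabetes-exposed Hif1a+/- differed from unexposed Wt by -0.03 on the log2 scale (95% interval -0.28 to 0.21), so the interval was narrow on either side of 0.

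Tek and Tie1, the angiopoietin-pathway receptors, varied little between groups. Tek, the receptor for angiopoietins, ran from 65.5 to 78.4 CPM over all 12 libraries. Its group means were 70.0 ± 3.74 (unexposed Wt), 73.4 ± 2.5 (diabetes-exposed Wt), 74.0 ± 3.89 (unexposed Hif1a+/-) and 70.1 ± 7.06 CPM (diabetes-exposed Hif1a+/-; SD, n = 3 each). The libraries of neighbouring groups in that order overlapped in level. Tie1, the orphan partner receptor, ran from 95.3 to 138.6 CPM, with group means from 109.4 ± 14.1 in diabetes-exposed Hif1a+/- to 119.8 ± 16.7 CPM in unexposed Hif1a+/- (SD, n = 3). For both receptors every pairwise log2 difference lay between -0.13 and 0.08, and all 10 of their 95% intervals spanned 0.

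Eng was the most variable of the identity genes within groups. Its level was 403.9, 291.7 and 219.7 CPM in unexposed Wt, 346.3, 386.8 and 238.1 CPM in diabetes-exposed Wt, 245.3, 294.7 and 297.7 CPM in unexposed Hif1a+/- and 320.0, 248.8 and 251.4 CPM in diabetes-exposed Hif1a+/-. The highest value came from unexposed Wt replicate 25, the library with the most red cell RNA, and the groups overlapped. The difference of diabetes-exposed Hif1a+/- from diabetes-exposed Wt was -0.24 (95% interval -0.69 to 0.20), so a moderate change in either direction could not have been detected here. The last part of Eng shares its locus with Fpgs on the other strand, which had 174 to 387 counts per library against at least 4167 for Eng.

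Icam2, the ICAM that resting endothelium carries constitutively, varied little. It ran from 33.4 to 44.5 CPM, and the 4 group means lay between 37.7 and 40.3 CPM. The difference of diabetes-exposed from unexposed Hif1a+/- was 0.06 on the log2 scale (95% interval -0.19 to 0.31).

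Cdh5, the junction gene beside Pecam1, overlapped between groups in every pairwise comparison except that of the Hif1a+/- groups. Its level was 233.0, 267.4 and 217.3 CPM in unexposed Wt, 212.0, 256.5 and 188.4 CPM in diabetes-exposed Wt, 251.5, 256.5 and 241.4 CPM in unexposed Hif1a+/- and 185.7, 210.7 and 224.6 CPM in diabetes-exposed Hif1a+/-. All 3 diabetes-exposed Hif1a+/- libraries lay below all 3 unexposed ones. This held for 1 of the 10, which is near the share over all genes tested (13.2%). The log2 difference was -0.27 (SE 0.12, 95% interval -0.52 to -0.02, a fold of 0.83), with an adjusted p of 0.40 by edgeR's quasi-likelihood test and 0.37 by DESeq2, so Cdh5 did not pass. In Wt the same contrast was -0.13 (95% interval -0.38 to 0.12).

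Vwf, which carries platelets to damaged vessel wall, showed the clearest separation by group. Its level was 104.9, 56.5 and 60.1 CPM in unexposed Wt and 81.9, 101.2 and 67.2 CPM in diabetes-exposed Wt. It was 69.5, 67.5 and 79.6 CPM in unexposed Hif1a+/- and 144.2, 117.7 and 116.8 CPM in diabetes-exposed Hif1a+/-. Each diabetes-exposed Hif1a+/- library was above every one of the other 9, which held for 2 of the 10 genes (Vwf and Selp) and for 1.18% of all genes tested. With unexposed Wt replicate 25 left out, Icam1 was also higher in all 3 diabetes-exposed Hif1a+/- libraries than in every remaining library of the other groups. The share of all genes without that replicate was not computed. Counting pairs of groups, all 3 libraries were higher for 2 of the 10 against unexposed Wt (Vwf and Selp; 7.47% of all genes) and for 3 of the 10 against diabetes-exposed Wt (Vwf, Icam1 and Selp; 4.32%). Without unexposed Wt replicate 25, the count against unexposed Wt was 4 of the 10 (Vwf, Icam1, Vcam1 and Selp; 11% of all genes). The lower 3 groups, at means of 72.2, 73.8 and 83.5 CPM, overlapped one another.

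Against unexposed Hif1a+/-, Vwf was 1.75-fold higher in diabetes-exposed Hif1a+/- (log2 0.81, SE 0.21, 95% interval 0.36 to 1.25). The adjusted p was 0.23 by edgeR's quasi-likelihood test and 0.019 by DESeq2. Against unexposed Wt the fold was 1.72 (log2 0.78, SE 0.21), with an adjusted p of 0.42 by edgeR and 0.053 by DESeq2. Against diabetes-exposed Wt it was 1.51 (log2 0.60, SE 0.21), with 0.86 by edgeR and 0.62 by DESeq2 (0.061 without unexposed Wt replicate 25, which is past the threshold). Vwf is on the study's own list of genes changed in these samples, so its call is not independent evidence of its direction. The DESeq2 call against unexposed Hif1a+/- held when any of 9 of the 12 libraries was left out and was lost without unexposed Hif1a+/- replicate 14 (adjusted p = 0.11), without its replicate 32 (0.22) or without diabetes-exposed Hif1a+/- replicate 66 (0.14). The DESeq2 call against unexposed Wt was lost without unexposed Wt replicate 42 (0.67) or 89 (0.11), or without diabetes-exposed Hif1a+/- replicate 66 (0.29) or 77 (0.17). Leaving out unexposed Wt replicate 25 raised the log2 difference from unexposed Wt to 1.12 (DESeq2 adjusted p = 2.4e-07; edgeR 0.15). Leaving out replicate 72 gave 0.83 in edgeR (adjusted p = 0.43).

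Icam1, the ligand of the beta-2 integrins on leukocytes, differed mainly between the Hif1a+/- groups. Its level was 25.8, 17.1 and 17.5 CPM in unexposed Wt, 19.9, 19.9 and 17.8 CPM in diabetes-exposed Wt, 14.8, 15.9 and 15.9 CPM in unexposed Hif1a+/- and 22.7, 21 and 33.0 CPM in diabetes-exposed Hif1a+/-. The unexposed Hif1a+/- libraries were below every library of unexposed Wt, as for no other of the 10 and for 2.26% of genes, and the diabetes-exposed Hif1a+/- libraries were above every library of unexposed Hif1a+/-, as for 4 of the 10 (Vwf, Icam1, Vcam1 and Selp) and for 11.2% of genes. Without unexposed Wt replicate 25, the highest of its group at 25.8 CPM, the libraries of unexposed Hif1a+/- were below unexposed Wt for Icam1 and Icam2 (6.28% of genes) and above it for Vwf (7.92%). The step between the Hif1a+/- groups was 1.64-fold (log2 0.71, SE 0.18, 95% interval 0.33 to 1.10), with an adjusted p of 0.22 by edgeR's quasi-likelihood test and 0.026 by DESeq2. Icam1 is among the genes the study sorted by function as differentially expressed in these samples, so its call is not independent evidence of its direction. In Wt the corresponding step was -0.06 (95% interval -0.44 to 0.32), and 0.15 without replicate 25. The difference between the steps, tested as the genotype by pregnancy interaction, was 0.77 (95% interval 0.23 to 1.32) and had an adjusted p of 1.0 in edgeR and in DESeq2, so the steps were not shown to differ. Without diabetes-exposed Hif1a+/- replicate 77, the highest library, the step was 0.49, and the DESeq2 call was lost (adjusted p = 0.31). The call was also lost without unexposed Hif1a+/- replicate 14, 32 or 44 (0.14, 0.17 and 0.12). Without replicate 72 the step was 0.84 (DESeq2 0.85, adjusted p = 0.0063).

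Vcam1, the ligand of the alpha-4 integrins, had higher means with maternal diabetes in both genotypes. Its level was 16.2, 15.9 and 15.0 CPM in unexposed Wt and 15.0, 15.3 and 15.5 CPM in unexposed Hif1a+/-. It was 22.3, 18.7 and 29.5 CPM in diabetes-exposed Wt and 15.9, 23.4 and 38.1 CPM in diabetes-exposed Hif1a+/-. All 3 diabetes-exposed Wt libraries lay above all 3 unexposed Wt libraries, which held for 1 of the 10 (2.14% of all genes), and without unexposed Wt replicate 25 for 3 of the 10 (Vwf, Icam1 and Vcam1; 5.33%). The unexposed libraries were tightly grouped, and the exposed ones scattered upwards, with replicate 66 of diabetes-exposed Hif1a+/- still at the unexposed level. The mean of both genotypes gave a 1.58-fold difference with exposure (log2 0.66, SE 0.17, 95% interval 0.29 to 1.04), with an adjusted p of 0.27 by edgeR's quasi-likelihood test and 0.024 by DESeq2. DESeq2 called 2 of the 10 genes in this comparison (Vcam1 and Vwf), where it called 1.46% of all genes, and without unexposed Wt replicate 25 it also called Icam1 (0.44, adjusted p = 0.068). The DESeq2 call of Vcam1 held when any 1 of the 12 libraries was left out. By genotype, the log2 difference was 0.58 in Wt (SE 0.25; DESeq2 adjusted p = 1.0, edgeR 1.0) and 0.75 in Hif1a+/- (SE 0.24; DESeq2 0.11, edgeR 0.30), and the interaction was 0.17 (95% interval -0.57 to 0.92). In Wt the value was 0.38 without diabetes-exposed replicate 80. In Hif1a+/- it rested on replicate 77, without which it was 0.36, and without replicate 66 it was 1.01 (DESeq2 adjusted p = 0.0024). For Vwf the same mean over genotypes was 0.49 (SE 0.15; DESeq2 adjusted p = 0.069, edgeR 0.28), and the DESeq2 call held in 5 of the 12 omissions.

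Selp was read from few counts, so each library's count is given. There were 6, 4 and 11 counts in unexposed Wt, 12, 10 and 12 in diabetes-exposed Wt, 13, 9 and 8 in unexposed Hif1a+/- and 42, 17 and 36 in diabetes-exposed Hif1a+/-. Scaled for depth these were 0.37, 0.18 and 0.45 CPM, 0.55, 0.34 and 0.69 CPM, 0.51, 0.51 and 0.40 CPM, and 1.08, 0.75 and 1.59 CPM. All 3 diabetes-exposed Hif1a+/- libraries were above the other 9, although the lowest of the 3, at 0.75 CPM, was close to the highest of the 9, at 0.69 CPM. The fold was 3.35 against unexposed Wt (log2 1.74, SE 0.40, 95% interval 0.88 to 2.61), 2.38 against unexposed Hif1a+/- (log2 1.25, SE 0.38) and 2.22 against diabetes-exposed Wt (95% interval 0.35 to 1.95 on the log2 scale). The adjusted p values were 0.32, 0.29 and 0.86 by edgeR's quasi-likelihood test and 0.14, 0.25 and 0.99 by DESeq2, so Selp passed in none. Without replicate 72 the first of these became 1.96 in edgeR (adjusted p = 0.23) and 1.99 in DESeq2 (adjusted p = 0.090), which is past the threshold. Without unexposed Wt replicate 25 it was 1.81 in edgeR (adjusted p = 0.66).

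**Figure D2:**
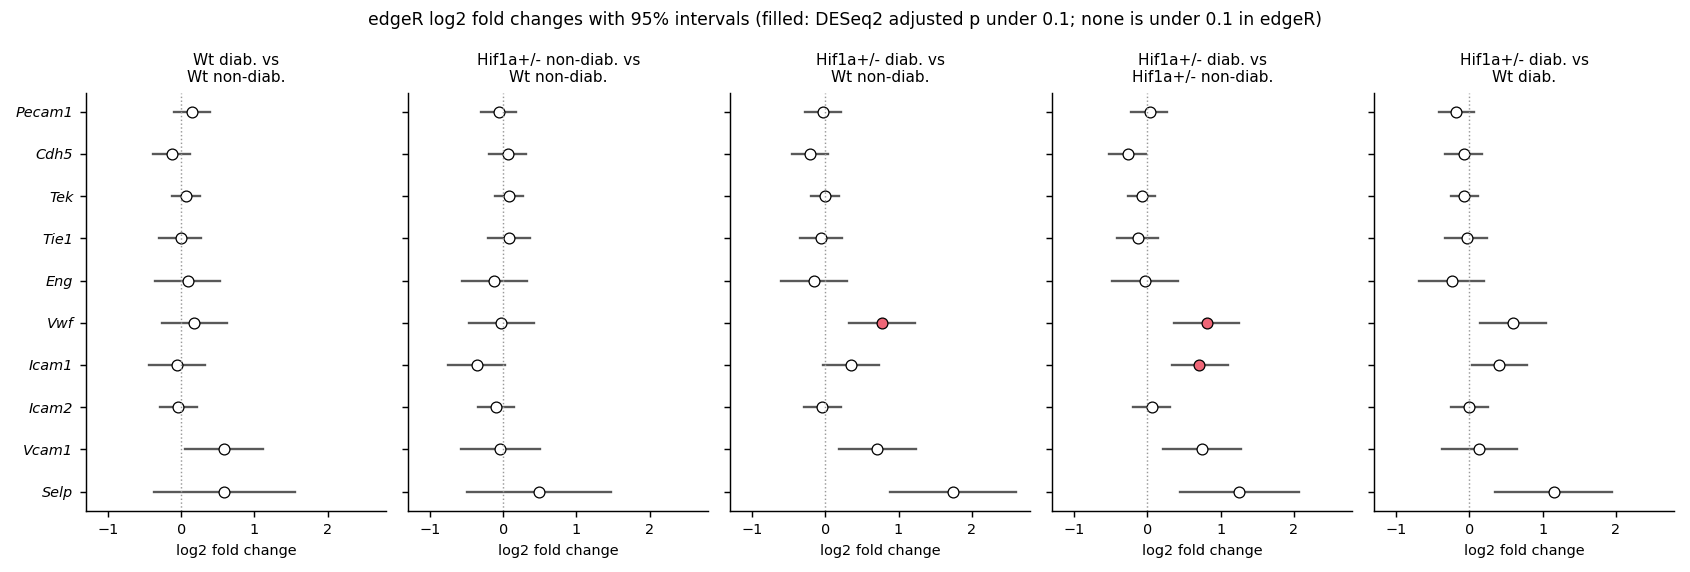
Log2 fold change (horizontal axis) with its 95% interval from edgeR for each of the 10 genes (rows) in the 5 pairwise comparisons (panels), with points filled where DESeq2 gave an adjusted p under 0.1. Vwf is filled in 2 panels and Icam1 in 1, and the first 5 rows and Icam2 lie near 0, between -0.27 and 0.15.

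The DNA just before the start of Icam1 and Selp is printed with that of Tek, a receptor gene whose groups overlapped. RefSeq promoters on GRCm38.p6 were at hand for 5 of the 10 genes, and the 250 bases before the annotated start are printed for 3, all on the plus strand, at chr9:21015690-21015939 for Icam1, chr1:164115014-164115263 for Selp and chr4:94739039-94739288 for Tek. Capitals mark matches to 3 motifs searched on both strands: GGAAATTCC, a form of the NF-kB site, and ACGTG and GCGTG, which are forms of the hypoxia response core.
Icam1: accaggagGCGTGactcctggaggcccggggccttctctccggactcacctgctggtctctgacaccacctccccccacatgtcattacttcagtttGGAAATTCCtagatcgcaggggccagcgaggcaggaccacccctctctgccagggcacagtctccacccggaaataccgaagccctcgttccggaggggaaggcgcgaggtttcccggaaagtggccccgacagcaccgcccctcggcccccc
Selp: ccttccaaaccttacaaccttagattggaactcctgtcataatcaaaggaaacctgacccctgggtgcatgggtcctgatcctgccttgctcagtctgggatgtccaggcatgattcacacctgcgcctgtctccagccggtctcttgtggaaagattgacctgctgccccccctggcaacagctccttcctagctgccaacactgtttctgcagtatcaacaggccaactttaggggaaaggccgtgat
Tek: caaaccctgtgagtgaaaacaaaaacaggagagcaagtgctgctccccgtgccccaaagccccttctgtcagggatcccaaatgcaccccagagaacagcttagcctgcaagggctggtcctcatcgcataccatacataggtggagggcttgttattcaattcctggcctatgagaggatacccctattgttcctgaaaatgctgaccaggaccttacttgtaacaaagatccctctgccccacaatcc
In Icam1, GGAAATTCC begins 153 bases before the RefSeq start and GCGTG begins 242 bases before it. The GENCODE annotation starts Icam1 further on, at chr9:21015985, whereas it starts Selp and Tek directly after their windows. Neither Selp nor Tek holds any of the 3 motifs in this window, and the matches in Icam1 do not overlap one another. Among 32851 promoters cut to the same length, 0.286% hold GGAAATTCC, 16.6% hold ACGTG and 28.2% hold GCGTG. A match is a run of letters and no more, and other parts of each gene's regulatory DNA were not searched.

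Most other endothelial genes did not pass the test. Of 20 pan-endothelial genes tested, edgeR called 0 and DESeq2 0 in diabetes-exposed Hif1a+/- against unexposed Wt, with a median log2 difference of -0.09 against 0 for all genes tested. Unadjusted p under 0.05 was reached by 1 gene that was higher, Emcn (0.33, SE 0.09), an endomucin of capillaries and veins, and by 2 that were lower, the transcription factor Sox7 (-0.35, SE 0.15) and Nos3 (-0.25, SE 0.11), the endothelial nitric oxide synthase. Over all 14706 genes tested it was reached by 1302, of which 601 were higher. In the mean over both genotypes, maternal diabetes gave 1 DESeq2 call among the 20, Emcn, which was higher (log2 0.35, adjusted p = 0.00081; edgeR 0.11), and 4 others reached an unadjusted p under 0.05, all lower (Cldn5, Erg, Sox7 and Nos3). That unadjusted p was reached by 1660 of all 14706 genes tested, of which 804 were higher, and DESeq2 called 1.46% of all genes. Emcn was at 45.7 ± 2.90 CPM in unexposed Wt, 60.6 ± 2.71 in diabetes-exposed Wt, 47.1 ± 1.39 in unexposed Hif1a+/- and 57.6 ± 5.98 CPM in diabetes-exposed Hif1a+/- (SD, n = 3), and its call held when any 1 of the 12 libraries was left out. The summed level of the 20 genes was 1304 to 1410 CPM in diabetes-exposed Hif1a+/- and 1207 to 1721 CPM in the other 9 libraries. Of 10 capillary genes tested, edgeR and DESeq2 called 0 and 0 reached an unadjusted p under 0.05, and the median was -0.01. Of 7 lymphatic genes, edgeR called 0 in diabetes-exposed against unexposed Hif1a+/- and DESeq2 called 1, where it called 1.44% of all genes. This was Lyve1 (1.91-fold, log2 0.94, SE 0.28, DESeq2 adjusted p = 0.059), a hyaluronan receptor that some macrophages also carry and that is on the study's own list. Without diabetes-exposed Hif1a+/- replicate 66 its difference was 0.58 (DESeq2 adjusted p = 0.39).

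The partners of the members were read from lists. Among 14 tested partners of the TIE receptors and endoglin, edgeR and DESeq2 called 0, and the median was -0.17 in diabetes-exposed Hif1a+/- against unexposed Wt. The 2 with an unadjusted p under 0.05 were the TIE2 ligands Angpt1 (-0.59, SE 0.25) and Angpt2 (-0.70, SE 0.31). In that comparison 1302 of all 14706 genes tested reached it, 601 of them higher. Of 12 tested Weibel-Palade genes other than Vwf and Selp, edgeR and DESeq2 called 0 in diabetes-exposed against unexposed Hif1a+/-, and 1 reached an unadjusted p under 0.05, the granule membrane tetraspanin Cd63 (0.32, SE 0.11). Over all 14706 genes tested that p was reached by 1764, of which 841 were higher. The median of the 12 was -0.06, and 5 of them were above 0. Of 10 tested genes of large vessels and endocardium other than Vwf, Vcam1 and Selp, edgeR and DESeq2 called 0 in the same comparison, 0 reached an unadjusted p under 0.05, and the median was 0.0.

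Among 13 other vascular adhesion genes tested, edgeR and DESeq2 called 0 in diabetes-exposed against unexposed Hif1a+/-. An unadjusted p under 0.05 was reached by 1764 of all 14706 genes tested, 841 of them higher, and by 2 of the 13. These were E-selectin, Sele (1.89-fold, log2 0.92, SE 0.30; 0.57 without diabetes-exposed Hif1a+/- replicate 77), from 13 to 59 counts per library, and Cd34, a sialomucin that can present selectin ligands (1.36-fold, log2 0.44, SE 0.14). Of 12 NF-kB-responsive genes, Sele among them, edgeR called 0 and DESeq2 called 2, where it called 1.44% of all genes. The 2 were the chemokines Cxcl1 (4.02-fold, log2 2.01, SE 0.54, adjusted p = 0.024) and Ccl2 (1.92-fold, log2 0.94, SE 0.27, adjusted p = 0.089), both on the study's own list. The median of the 12 was 0.17. Cxcl1 was at 1.26, 1.41 and 6.01 CPM in diabetes-exposed Hif1a+/- (in ascending order) and at most 0.86 CPM in unexposed Hif1a+/-, and without replicate 77 its log2 difference was 0.92 (DESeq2 adjusted p = 0.53). The call of Ccl2 held in 5 of the 12 omissions and was lost, among others, without unexposed Wt replicate 25 (adjusted p = 0.11).

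The leukocyte side of adhesion was read from the genes of the counter-receptors. Of 11 counter-receptor genes, edgeR called 0 and DESeq2 called 2 in diabetes-exposed against unexposed Hif1a+/-, where it called 1.44% of all genes. The 2 were Itgam (2.45-fold, log2 1.29, SE 0.27, adjusted p = 0.011) and Itgb2 (2.05-fold, log2 1.03, SE 0.25, adjusted p = 0.011), the chains of the integrin Mac-1 that binds ICAM-1. Of the 11, 3 reached an unadjusted p under 0.05 (with Spn, a leukocyte sialomucin), as did 1764 of all 14706 genes tested. The median of the 11 was 0.67, against -0.01 for all genes tested. Of the 11, 9 were above 0. Their summed level overlapped between the groups, at 511.6 to 591.1 CPM in diabetes-exposed and 527.2 to 540.2 CPM in unexposed Hif1a+/-. A sum follows the genes with the most counts, so it does not show the differences of the others. The call of Itgam was lost without unexposed Hif1a+/- replicate 14 or diabetes-exposed replicate 77, and that of Itgb2 without unexposed replicate 32. Itgam and Itgb2 are both on the study's own list of changed genes. Itga4, the alpha chain that binds VCAM-1, was at -0.11 (SE 0.29), and Selplg, the P-selectin ligand, at 0.67 (SE 0.32; DESeq2 adjusted p = 0.40, edgeR not called). The median log2 difference of the 11 in diabetes-exposed Hif1a+/- was 0.26 against unexposed Wt and 0.31 against diabetes-exposed Wt. DESeq2 called 0 of them in both. In unexposed Hif1a+/- against unexposed Wt the median was -0.16, with 2 of the 11 above 0.

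Macrophage markers were called in part. Their summed level over 9 genes was 318.0 to 450.7 CPM in unexposed Wt, 327.7 to 540.3 in diabetes-exposed Wt, 238.7 to 356.3 in unexposed Hif1a+/- and 485.2 to 705.7 in diabetes-exposed Hif1a+/-, and none of the 9 was at 0 in any library. DESeq2 called 4 of the 9 in diabetes-exposed against unexposed Hif1a+/- (C1qa, C1qb, Lyz2 and Mrc1, all on the study's own list), where it called 1.44% of all genes, and edgeR called 0. An unadjusted p under 0.05 was reached by 8 of the 9 and by 1764 of all 14706 genes tested. The median of the 9 was 0.87. The calls of C1qb and Lyz2 held in all 12 omissions of 1 library, that of Mrc1 in 9 and that of C1qa in 8. DESeq2 called 1 of the 9 (C1qb) against unexposed Wt (0.453% of all genes) and 0 against diabetes-exposed Wt (0.155%). The highest library of diabetes-exposed Wt, at 540.3 CPM, was above the lowest of diabetes-exposed Hif1a+/-, at 485.2 CPM. Summed platelet and megakaryocyte markers, whose cells also make Vwf and Selp, were at 20.0 to 32.3, 17.8 to 22.6, 16.4 to 17.4 and 21 to 30.3 CPM in the groups in the same order. Of 9 platelet genes, 2 (Gp6 and Treml1) were at 0 in some library and 6 passed the filter on low counts, of which DESeq2 called Pf4 (1.67-fold, log2 0.74, SE 0.16, adjusted p = 0.0050), a gene also on the study's own list. In diabetes-exposed against unexposed Hif1a+/-, 5 of these 6 were above 0 (median 0.43). In diabetes-exposed Hif1a+/- against unexposed Wt 1 of the 6 was above 0 (median -0.48). Gp1ba, the platelet receptor of von Willebrand factor, was lower in all 3 diabetes-exposed than in all 3 unexposed Hif1a+/- libraries, as were 13.2% of genes tested (means of 1.82 and 2.70 CPM; log2 -0.56, SE 0.21, edgeR adjusted p = 0.36, DESeq2 0.37). Among markers of other vessel-wall cells in the same comparison, DESeq2 called 1 of 5 smooth muscle genes, Myh11, which was lower (log2 -0.78, SE 0.24, adjusted p = 0.097; list median -0.34), 0 of 7 pericyte genes, of which Rgs5 (-0.25) and Abcc9 (-0.27) reached an unadjusted p under 0.05, and 0 of 6 fibroblast genes, all 6 above 0 (median 0.29). In that comparison 6.28% of all genes were lower with an unadjusted p under 0.05. The Myh11 call held in 4 of the 12 omissions, and Myh11 is on the study's own list. Summed levels of the smooth muscle list were 385.7 to 446.1 CPM in unexposed and 359.3 to 435.7 CPM in diabetes-exposed Hif1a+/-, those of the pericyte list 1345 to 1463 and 1167 to 1315 CPM, and those of the fibroblast list 1162 to 1221 and 1176 to 1536 CPM. The part of macrophages, platelets and vessel-wall cells in the levels of Vwf, Icam1, Vcam1 and Selp was not tested.

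**Figure D3:**
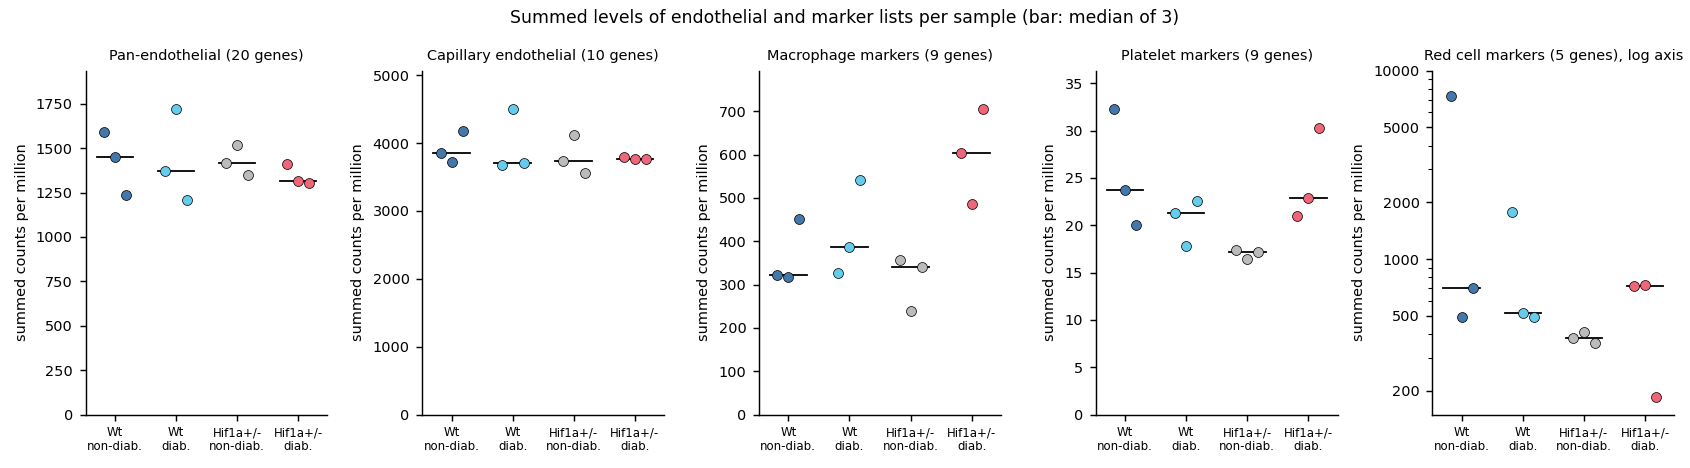
Summed CPM (vertical axes, from 0 except the log axis of the last panel) of endothelial, macrophage, platelet and red cell lists in each library, by group, with the median of 3 as a bar. The endothelial sums overlap across groups, the macrophage sums reach 705.7 CPM in diabetes-exposed Hif1a+/-, and 1 unexposed Wt library stands at 7323 CPM of red cell transcripts.

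**Figure D4:**
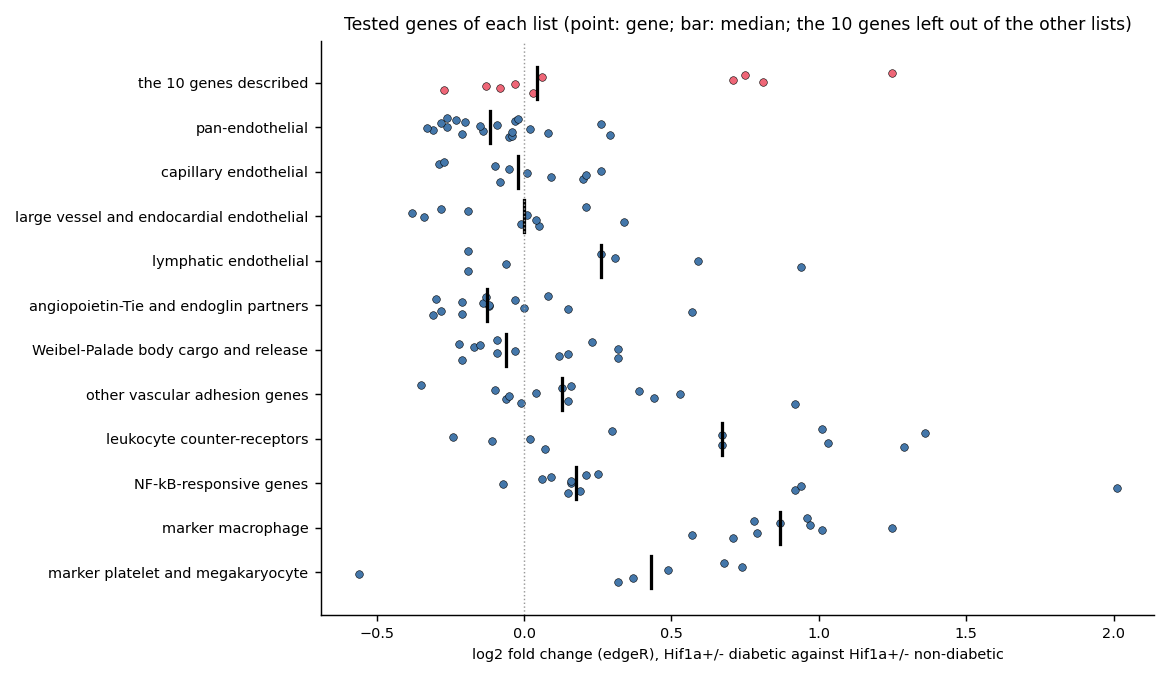
Log2 fold change from edgeR in diabetes-exposed against unexposed Hif1a+/- (horizontal axis) for each tested gene (point) of the lists (rows), with the list's median as a bar and the 10 genes left out of the other lists. The 10 genes split into 6 near 0 and 4 above 0.70, the pan-endothelial genes lie around -0.12, and the macrophage markers around 0.87.

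The profile of each gene over the 12 libraries was set beside all other tested genes by Pearson's r of log2 CPM, as a description over libraries that share depth and composition. For Vwf the most alike were Thop1 (0.92), Shisa2 and Rbm19 (0.89 each), and for Selp Itga7 (0.94), Duoxa1 (0.93) and Cbr2 (0.91). For Icam1 they were the complement gene C3 (0.89), Cadm3 (0.88) and the chemokine scavenger Ackr2 (0.87), and for Vcam1 the interferon-induced Ifitm3 (0.92), Steap3 (0.90) and Acsl5 (0.89). The identity genes had other neighbours: Ints13, Amot and Zc3h12c for Pecam1 (0.88 to 0.89), Stox2, Git2 and Itpkb for Cdh5 (0.93 each), Galnt17, Tom1 and Dnajc10 for Tek (0.84 to 0.86), Dock6, Als2cl and Arhgap17 for Tie1 (0.92 each), Hivep1, Sgk1 and Susd6 for Eng (0.95 to 0.98) and Scnm1, Tceal8 and Itm2a for Icam2 (0.92 to 0.94). None of the 10 was among the 3 genes most like another of the 10.

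Genotype alone separated the members little. In unexposed Hif1a+/- against unexposed Wt the largest difference past 0 in either direction was that of Selp (0.49, 95% interval -0.49 to 1.47), followed by Icam1 (-0.36, 95% interval -0.75 to 0.02), and the other 8 lay between -0.13 and 0.08. Without unexposed Wt replicate 25 the difference of Icam1 was -0.16, that of Vwf 0.30 in place of -0.03 and that of Eng 0.12 in place of -0.13. Averaged over both pregnancies, Selp differed by 0.82 between genotypes (SE 0.29; DESeq2 adjusted p = 1.0, edgeR 1.0). In Wt, maternal diabetes gave differences between -0.13 and 0.18 for the 8 genes other than Vcam1 (0.58) and Selp (0.59). Without unexposed Wt replicate 25 these were 0.52 for Vwf, 0.34 for Eng and 0.15 for Icam1, with an edgeR adjusted p of 1.0 for each with all libraries. Selp rested on unexposed Wt replicate 42, without which its difference was 0.17 for genotype and 0.29 for maternal diabetes. All 5 pairwise comparisons share groups, so their values are not independent of each other.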

How the data were processed

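RNA of 12 left ventricles was read by 3′-seq on an Illumina NextSeq. The authors deposited counts per gene for each sample, and values normalised by DESeq2 size factors, a scaled signal used only to check the columns. Per the labels and the study's methods, reads were trimmed with Trimmomatic, aligned to GRCm38 with STAR 2.5.2b and counted with HTSeq. The strand setting is not given in the sources used here, so reads of the opposite strand at Cdh5, Icam1, Vcam1, Selp and Eng may not have been told apart. The annotated antisense partners of Vcam1 and Selp had at most 1 count per library, and Fpgs (Eng) had 174 to 387. Those of Cdh5 and Icam1 were not found among the counted genes. The 5 tally lines of each file were left out.

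Counts were fitted with edgeR 4.0.16 (TMM, filterByExpr, glmQLFit and glmQLFTest) on all 12 samples with 1 mean per group, and adjusted over 14706 genes at 0.1, the study's threshold. SE is the log2 fold change over the square root of F. DESeq2 1.42.0, another scaling, other filters, limma 3.58.1 with quality weights and omission of each library were alternatives. Scripts were tested on simulated data. A gene list's named genes were those called by either tool or the 3 with the smallest p in diabetes-exposed Hif1a+/- against unexposed Wt. Likeness used log2(CPM + 0.5). Members and lists were chosen with earlier results of these data known.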

Additional observations from a re-analysis of the deposited data

How the results depend on the processing

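No member was called by edgeR in any of the 9 comparisons, at an adjusted p threshold of 0.1 or 0.05, with DESeq2 size factors, with a minimum of 10 counts in every sample (Selp then not tested), with a robust fit, or without any 1 library. DESeq2 called 1 member in diabetes-exposed Hif1a+/- against unexposed Wt, 2 against unexposed Hif1a+/-, 2 in the mean over genotypes and 1 for any difference among groups. Leaving out 1 library, counting both tools, gave 0 to 2, 0 to 3, 0 to 3 and 0 to 3 in these, and 0 to 1 against diabetes-exposed Wt. DESeq2's calls among all genes also varied widely over these omissions. In the same order they ran from 10 of 13855 to 371 of 13305 and from 40 of 13860 to 388 of 13865. For the mean over genotypes they ran from 51 of 13855 to 600 of 12785. For any difference they ran from 74 of 15944 to 314 of 14387, and against diabetes-exposed Wt from 2 of 26878 to 316 of 13865. Without a filter on low counts edgeR called 1 (diabetes-exposed against unexposed Wt), 3 (diabetes-exposed Hif1a+/- against unexposed Wt), 4 (against unexposed Hif1a+/-), 1 (against diabetes-exposed Wt), 1 (interaction), 3 (mean over genotypes) and 4 (any difference), among 27093 genes (percent of all genes called, in this order: 0.476, 1.64, 2.19, 0.812, 0.288, 2.19 and 2.54), and the cause was not tested. In diabetes-exposed against unexposed Hif1a+/-, limma called 4 (6.37% of all genes) and a fit of only the groups compared 1 (0.708%). With replicates 72 and 25 both left out, chosen after seeing the data, edgeR called 1 (against unexposed Wt; 0.0267% of all genes) and 2 (against unexposed Hif1a+/-; 0.281%), and DESeq2 2 (0.436%), 2 (1.08%), 1 (against diabetes-exposed Wt; 0.25%), 3 (mean over genotypes; 1.2%) and 2 (any difference; 0.796%). Of 615 fold changes recomputed for 19 pairs of member and comparison, 0 changed sign, 83 had an adjusted p under 0.1 and 532 did not. These pairs were picked from the same data, by an unadjusted edgeR p under 0.05 or a DESeq2 adjusted p under 0.1. Their kept sign was thus nearly fixed in advance. Pairs not followed did change sign, such as Vwf and Eng in unexposed Hif1a+/- against unexposed Wt without replicate 25. No paired analysis was possible because the animal numbers in the labels are not shared between groups. Selp, at 4 to 42 counts per library, is limited by depth.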
